A study of Mus musculus with 8 samples.

Results

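Pou5f1, Sox2 and Nanog encode the transcription factors at the core of the mouse pluripotency network. They were taken by symbol from the gene tables, 3 of 39009 entries, and each had 1 entry, with an estimate marked as usable in every library. Pou5f1 encodes a POU-domain factor that binds the octamer element, and Sox2 encodes an HMG-box factor that binds beside it on composite elements. Nanog encodes a homeodomain factor that stabilises self-renewal. As background, the 3 proteins occupy many of the same enhancers in mouse embryonic stem cells, including those of their own genes, and Sox2 is also a factor of neural progenitors. Nanog is known to vary from cell to cell in mouse embryonic stem cell cultures.

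RNA sequencing covered 8 libraries in 5 groups. Chemically induced pluripotent stem cells (CiPSC), obtained from somatic cells with small molecules, comprised 3 lines of neural origin (NSC-CiPSC, numbered 1, 2 and 3) and 2 of intestinal origin (IEC-CiPSC, numbered 10 and 13). They were set against their source populations, cultured neural stem cells at passage 2 (NSC) and primary epithelial cells of the small intestine (IEC), both taken at E13.5, and against embryonic stem cells of the R1 line (ESC), with 1 library each. The strain of both CiPSC groups and both source populations was labelled C57BL/6J-Tg(GOFGFP)11Imeg/RbrcxICR, with a number after the transgene that ran from 11 to 17 over the 7 libraries, and that of ESC was 129X1 x 129S1. GOFGFP is a green fluorescent protein reporter driven by a genomic fragment of Pou5f1, so all groups but ESC carried it, and reads from Pou5f1 sequence within the transgene cannot be told apart from those of the gene. Whether the lines derive from different animals is not labelled, and p-values therefore reflect only how far these lines differ from each other. NSC, IEC and ESC have no replicate and were assumed to vary like the lines.

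Levels are given as FPKM, fragments per kilobase of transcript scaled by library size. Their sums per library ran from 661114 to 771389, and read counts were not used here. Processed pseudogenes of Pou5f1 and Nanog exist in the mouse genome, and how reads shared with them were counted is not given in the sources used here. Bounds in square brackets are the 95% intervals in the files, which cover counting and assignment within 1 library. The labelled cell types were checked against marker lists. The 6 pluripotent markers summed to FPKM 3963 to 5482 in NSC-CiPSC, 6634 to 6983 in IEC-CiPSC and 3726 in ESC, against 8.10 in NSC and 0.333 in IEC. Most of each pluripotent sum came from Dppa5a, at 2754 to 4321 in NSC-CiPSC, 5271 to 5628 in IEC-CiPSC and 1998 in ESC. The order of these sums is therefore mainly that of Dppa5a. Among the pluripotent libraries, Zfp42 and Esrrb were highest in ESC, and Tdgf1 and Fgf4 were lowest there. The 7 neural stem cell markers summed to 15.1 to 23.2 in NSC-CiPSC and 12.4 to 13.0 in IEC-CiPSC, against 5731 in NSC, 17.2 in IEC and 8.64 in ESC. In IEC, 6 mesenchyme markers summed to 5177 and 4 leukocyte markers to 3148, while 8 intestinal epithelium markers summed to 51.9, with Cdx2 at 0.0912. The intestinal list summed to 142 to 169 in NSC-CiPSC, 141 to 142 in IEC-CiPSC and 133 in ESC, mostly from Epcam and Cdh1. Its sum therefore did not mark IEC, although Lgals4, Vil1, Krt20 and Fabp2 were highest there. Whether other cells in IEC moved the values set against it was not tested, and in bulk RNA fewer cells of a type and less RNA per cell cannot be told apart.

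The 3 genes lie on different chromosomes of mm10. Pou5f1 (ENSMUSG00000024406) spans positions 35506018 to 35510776 of chromosome 17, Sox2 (ENSMUSG00000074637) positions 34650005 to 34652461 of chromosome 3, and Nanog (ENSMUSG00000012396) positions 122707489 to 122714633 of chromosome 6, all on the plus strand. The 250 bases before each RefSeq start are shown because the genes rose together in the intestinal route and only Pou5f1 and Nanog did so in the neural route. They are RefSeq sequences of build GRCm38.p6 on the plus strand, at chr17:35505782-35506031 for Pou5f1, chr3:34649745-34649994 for Sox2 and chr6:122707239-122707488 for Nanog. The RefSeq start lies 14 bases after the start in the files for Pou5f1, 10 bases before it for Sox2 and at the same base for Nanog, and motif positions are counted back from the RefSeq start. Capitals mark matches on either strand to 5 motifs: the octamer ATGCAAA, the SOX core CATTGT, the composite of CATTGT, 1 base and ATGCAAA, the nuclear receptor element AGGTCA, and the GC box GGGCGG.
Pou5f1: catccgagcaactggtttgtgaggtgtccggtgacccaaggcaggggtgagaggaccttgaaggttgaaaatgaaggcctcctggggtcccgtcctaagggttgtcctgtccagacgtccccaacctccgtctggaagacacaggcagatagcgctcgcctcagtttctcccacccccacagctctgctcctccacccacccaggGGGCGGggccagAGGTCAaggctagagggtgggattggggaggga
Sox2: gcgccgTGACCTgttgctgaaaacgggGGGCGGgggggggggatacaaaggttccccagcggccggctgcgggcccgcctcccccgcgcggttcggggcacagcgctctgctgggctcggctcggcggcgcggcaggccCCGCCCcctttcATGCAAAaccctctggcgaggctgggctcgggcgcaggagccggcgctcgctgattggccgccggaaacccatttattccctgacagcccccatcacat
Nanog: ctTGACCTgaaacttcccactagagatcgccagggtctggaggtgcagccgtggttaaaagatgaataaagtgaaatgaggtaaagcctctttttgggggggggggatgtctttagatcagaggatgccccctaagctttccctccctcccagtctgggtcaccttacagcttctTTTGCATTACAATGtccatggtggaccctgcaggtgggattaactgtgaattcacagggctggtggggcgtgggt
In the Nanog window the composite lay on the minus strand at positions -75 to -62 from the start, where the octamer and the SOX core of that window also lie. Across 32851 RefSeq windows of the same length, 2 held the composite, and both belong to Nanog. The Sox2 window held an octamer at -99 to -93, GC boxes at -223 to -218 and, on the minus strand, at -111 to -106, and AGGTCA on the minus strand at -244 to -239. The Pou5f1 window held a GC box at -45 to -40 and AGGTCA at -33 to -28, and the Nanog window held AGGTCA on the minus strand at -248 to -243. Of all windows, 4.125% held the octamer, 10.7% the SOX core, 14.0% AGGTCA and 32.7% the GC box, so these matches are common outside the 3 genes. GC content was 62% for Pou5f1, 72% for Sox2 and 52% for Nanog, against a median of 52.4% over all windows. These are descriptions of letters in the windows and say nothing of binding.

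Pou5f1 was the highest of the 3 genes in every pluripotent library and was close to 0 in both source populations. It had FPKM 1001, 935 and 848 in NSC-CiPSC lines 1, 2 and 3 and 1173 and 1206 in IEC-CiPSC lines 10 and 13, against 2.02 [0 to 4.72] in NSC, 0.0810 [0 to 0.307] in IEC and 1041 [1022 to 1061] in ESC. All 5 lines lay far above both source libraries, the IEC-CiPSC lines lay above ESC and the NSC-CiPSC lines below it. Within a library Pou5f1 ranked between place 114 and place 142 among all entries in the 5 lines, at place 116 in ESC, and at 11419 in NSC and 18039 in IEC. Read as counting alone, the NSC interval would stand for 2.22 fragments, each worth FPKM 0.907. In the pluripotent libraries 1 implied fragment of Pou5f1 was worth 0.0911 to 0.137. For Sox2 it was worth 0.0450 in NSC, against 0.0415 to 0.0476 in the other libraries. The interval also covers assignment, so 2.22 is not a count of fragments, and what widened the interval was not tested. The NSC interval includes 0, so detection of Pou5f1 in NSC was not shown.

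On the log2(FPKM + 1) scale Pou5f1 rose by 8.26 ± 0.11 (SE) in NSC-CiPSC against NSC (limma, Benjamini-Hochberg adjusted p = 1.60e-05) and by 10.10 ± 0.11 in IEC-CiPSC against IEC (adjusted p = 3.22e-06), higher in 3 of 3 and 2 of 2 lines. Calls required a difference of 2-fold or more with an adjusted p below 0.05. By absolute size these differences were at place 10 and place 7 among 17011 genes tested, of which 39.0% were called in NSC-CiPSC against NSC (18.3% higher, 20.7% lower) and 45.3% in IEC-CiPSC against IEC (19.1% higher, 26.2% lower). Calls higher in the CiPSC lines made up 46.9% in the neural route and 53.0% under upper quartile scaling, and 42.2% in the intestinal route and 52.6% under quantile normalization. Against ESC the differences were -0.17 (95% interval -0.47 to 0.13, adjusted p = 0.451) for NSC-CiPSC and 0.19 (-0.12 to 0.51, adjusted p = 0.392) for IEC-CiPSC. NSC-CiPSC minus IEC-CiPSC was -0.36 (-0.59 to -0.13, adjusted p = 0.0825). All 3 intervals lie within 2-fold, and none of the 3 comparisons passed the test at an adjusted p below 0.05, while the unadjusted p was 0.191, 0.168 and 0.0127 in this order. The comparisons with ESC share its 1 library.

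Sox2 separated the routes, since it was already high in neural stem cells. It had FPKM 143, 138 and 143 in NSC-CiPSC lines 1, 2 and 3 and 238 and 227 in IEC-CiPSC lines 10 and 13, against 171 [165 to 176] in NSC, 3.00 [2.29 to 3.70] in IEC and 201 [195 to 207] in ESC. The 3 NSC-CiPSC lines lay below NSC, ESC and both IEC-CiPSC lines, with no overlap between the groups. Pou5f1 and Nanog had the same order of the CiPSC origins, and the share of all genes that separate them was not counted. IEC was the only library in which Sox2 was low, and its interval there did not include 0.

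Sox2 rose by 5.87 ± 0.06 (SE) on the log2 scale in IEC-CiPSC against IEC (limma, adjusted p = 2.70e-06), at place 180 of 17011 by size. In NSC-CiPSC against NSC the difference was -0.27 ± 0.06 (95% interval -0.43 to -0.11, adjusted p = 0.0200), at place 13550 by size and below the 2-fold threshold, so Sox2 was not called. That p was under 0.05 in 10 of 12 alternative settings and 0.231 under upper quartile scaling, where the difference was -0.11. NSC-CiPSC lay below ESC by -0.51 ± 0.06 (-0.67 to -0.35, adjusted p = 0.0321, under 0.05 in 8 of 12 settings). In every setting where that p was 0.05 or more, 1 line was left out, and it was 0.133 (limma) without NSC-CiPSC line 3. The difference itself ran from -0.52 to -0.49 with 1 line left out. IEC-CiPSC minus ESC was 0.21 (0.04 to 0.38, adjusted p = 0.154). NSC-CiPSC lay below IEC-CiPSC by -0.71 ± 0.05 (-0.84 to -0.59, adjusted p = 0.00857, under 0.05 in 9 of 12 settings). The NSC-CiPSC differences from ESC and from IEC-CiPSC were smaller than 2-fold throughout their intervals and were not called. The overlapping transcript Sox2ot, a long noncoding RNA on the same strand whose locus contains Sox2, was at 0.388, 0.282 and 0.279 in NSC-CiPSC and 0.805 and 0.430 in IEC-CiPSC, against 5.52 in NSC, 0 in IEC and 0.531 in ESC. Sox2ot fell by 2.31 ± 0.15 on the log2 scale in NSC-CiPSC against NSC (adjusted p = 0.000847), and reads that fall in both loci cannot be assigned with certainty.

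Nanog was low in both source populations and varied most among the lines. It had FPKM 218, 441 and 383 in NSC-CiPSC lines 1, 2 and 3 and 533 and 576 in IEC-CiPSC lines 10 and 13, against 0.455 [0.112 to 0.798] in NSC, 0.157 [0 to 0.387] in IEC and 384 [375 to 393] in ESC. NSC-CiPSC line 1 was the lowest pluripotent library. Its interval of 211 to 226 did not reach those of lines 2 and 3, while line 3 and ESC had overlapping intervals. Both IEC-CiPSC lines lay above ESC and above all 3 NSC-CiPSC lines.

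Nanog rose by 7.84 ± 0.44 (SE) on the log2 scale in NSC-CiPSC against NSC (limma, adjusted p = 0.000576, place 14 by size) and by 8.91 ± 0.46 in IEC-CiPSC against IEC (adjusted p = 0.000311, place 12). Against ESC it differed by -0.20 (95% interval -1.40 to 0.99, adjusted p = 0.843) in NSC-CiPSC and by 0.53 (-0.74 to 1.80, adjusted p = 0.554) in IEC-CiPSC. NSC-CiPSC minus IEC-CiPSC was -0.73 (-1.68 to 0.21, adjusted p = 0.258). Each of these 3 intervals reaches beyond 2-fold on one side, so a difference of that size in Nanog may have gone undetected. Without NSC-CiPSC line 1 the difference from ESC was 0.10 (adjusted p = 0.628), so its sign rests on that line.

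**Figure D1:**
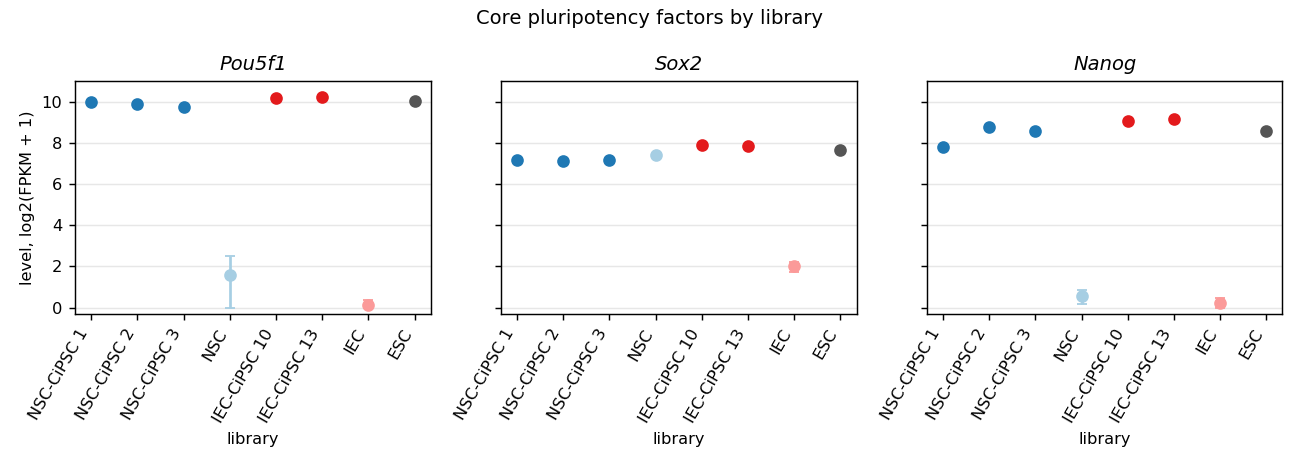
Levels of Pou5f1, Sox2 and Nanog in the 8 libraries, with the library on the horizontal axis and log2(FPKM + 1) on the vertical axis. Points are library values and bars are the 95% intervals in the files, which are smaller than the points at high levels. Pou5f1 and Nanog are low in NSC and IEC, and Sox2 is low in IEC alone.

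**Figure D2:**
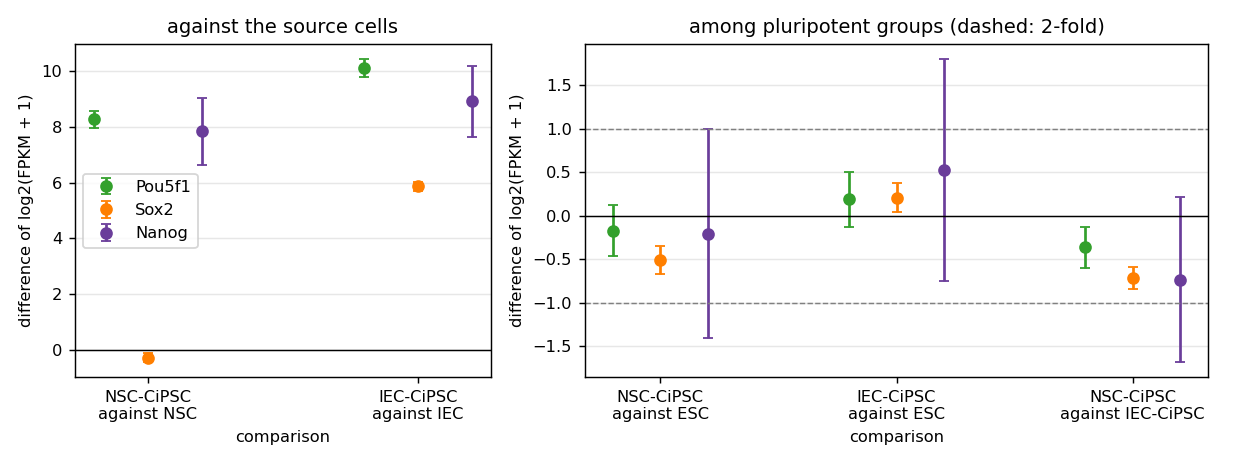
Differences of log2(FPKM + 1) for the 3 genes, with the comparison on the horizontal axis. Points are limma estimates over the 8 libraries and bars their 95% intervals, and dashed lines in the right panel mark 2-fold. Against the source cells all differences but that of Sox2 in NSC-CiPSC exceed 5, and among pluripotent groups the Nanog intervals are the widest.

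The spread between lines of 1 origin differed by gene. Over the 3 NSC-CiPSC lines the highest value exceeded the lowest by 1.04-fold for Sox2, 1.18-fold for Pou5f1 and 2.02-fold for Nanog, with means of 141 ± 3.13, 928 ± 76.7 and 348 ± 116 FPKM (SD, n = 3). Over the 2 IEC-CiPSC lines the same ratios were 1.05 for Sox2, 1.03 for Pou5f1 and 1.08 for Nanog, with means of 232 ± 7.98, 1189 ± 23.4 and 555 ± 30.7 FPKM (SD, n = 2). With so few lines per origin, a difference in spread between origins was not tested.

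Proportions within a library do not depend on how libraries were scaled. The ratio of Nanog to Pou5f1 FPKM was 0.218, 0.472 and 0.452 in NSC-CiPSC lines 1, 2 and 3 and 0.454 and 0.478 in IEC-CiPSC lines 10 and 13, against 0.369 in ESC. NSC-CiPSC line 1 was low and the other 4 lines lay close together, above ESC. The ratio of Sox2 to Pou5f1 was 0.143, 0.147 and 0.169 in the NSC-CiPSC lines and 0.203 and 0.188 in the IEC-CiPSC lines, against 0.193 in ESC. Every NSC-CiPSC line lay below every IEC-CiPSC line and ESC in this ratio. The ratio of Nanog to Sox2 was 1.53, 3.21 and 2.68 in NSC-CiPSC and 2.24 and 2.54 in IEC-CiPSC, against 1.91 in ESC, and the groups overlapped. Exact two-sided permutation tests of the log2 ratios between the CiPSC origins gave p = 0.4, 0.2 and 1 for the 3 ratios in this order, and 0.2 is the smallest p that 3 against 2 lines allow.

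**Figure D3:**
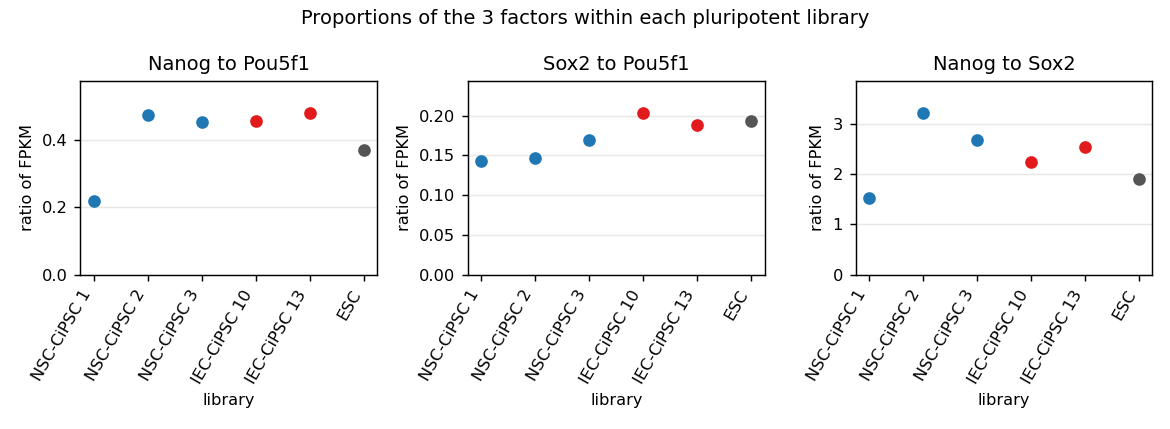
Ratios of FPKM between the 3 genes in the 6 pluripotent libraries, with the library on the horizontal axis and the ratio, from 0, on the vertical axis. Each point is 1 library. NSC-CiPSC line 1 has the lowest Nanog ratios, and the NSC-CiPSC lines have Sox2 to Pou5f1 ratios of 0.143 to 0.169, below those of the other libraries.

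The difference between the routes was tested as the neural change minus the intestinal change, for which 30.5% of all genes tested were called (17.6% positive, 12.9% negative). Positive values made up 57.6% of these calls and 47.5% under quantile normalization, so this balance turns with the scaling. Sox2 was called with a difference of -6.14 ± 0.08 (SE, limma, adjusted p = 8.40e-06) and Pou5f1 with -1.84 ± 0.16 (adjusted p = 0.00217), while Nanog had -1.06 ± 0.64 (adjusted p = 0.263). Since NSC and IEC have 1 library each, the gap between them is part of this contrast and has no replicate check. For Sox2 the level in NSC exceeded that in IEC by 5.42 on the log2 scale, and the lines contributed the remaining -0.71. For Pou5f1 the source gap was 1.48 and the lines contributed -0.36. For Nanog the source gap was 0.33 and the lines contributed -0.73. With a pseudocount of 0.1 the Pou5f1 value became -3.91, and it rests on levels in NSC and IEC whose intervals include 0.

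Among 15 genes of the POU family, Pou5f1 held 97.4% to 97.5% of the summed FPKM in NSC-CiPSC, 97.7% to 97.8% in IEC-CiPSC and 97.3% in ESC, against 1.86% in NSC and 0.582% in IEC. In the pluripotent libraries the next member was the broadly expressed Pou2f1, at most at 10.2. Of 11 POU genes tested, 6 rose, Pou5f1 among them, and 4 fell in NSC-CiPSC against NSC. Over all genes tested 18.3% rose and 20.7% fell there. The median difference was 1.36 against 0.03 over all genes. The neural factors Pou3f3, Pou3f4 and Pou3f2 were among those that fell. Pou3f3 was at 0.102, 0.225 and 0.166 in the NSC-CiPSC lines, against 74.4 in NSC, a log2 difference of -6.02 ± 0.08. In IEC-CiPSC against IEC 5 POU genes rose, again with Pou5f1, and none fell (median 0.49 against -0.03 over all genes). Over all genes tested 19.1% rose and 26.2% fell in that route. Pou3f3 was listed at 0.0656 in IEC and at most 0.0984 in IEC-CiPSC. The rise of Pou2f3 in the neural route (1.69 ± 0.47, adjusted p = 0.0419) had adjusted p up to 0.102 with 1 line left out, and in the intestinal route those of Pou2f3, Pou3f1 and Pou4f1 had adjusted p up to 0.0542, 0.120 and 0.0526.

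Among 19 SOX genes, Sox2 held 63.8% to 68.3% of the summed FPKM in NSC-CiPSC and 80.1% to 80.3% in IEC-CiPSC, against 33.2% in NSC, 3.84% in IEC and 77.9% in ESC. It was the highest SOX gene in NSC, where Sox4 was next at 96.2. In IEC, Sox4 was highest at 44.3 and Sox2 was at place 4. Of 13 SOX genes tested, 2 rose and 8 fell in NSC-CiPSC against NSC (median -3.08 against 0.03 over all genes). Over all genes tested 18.3% rose and 20.7% fell there. Those that fell included the neural and glial factors Sox8 (-5.52 ± 0.36), Sox5 (-4.66 ± 0.07), Sox9 (-4.40 ± 0.07) and Sox21 (-4.02 ± 0.15), and Sox3, the close relative of Sox2 in the same subgroup, by -3.44 ± 0.17. Sox15 rose by 4.36 ± 0.48 in the neural and 4.45 ± 0.51 in the intestinal route, and Sox13 rose by 1.76 ± 0.24 and 2.20 ± 0.25. In IEC-CiPSC against IEC 4 SOX genes rose, Sox2 among them, and 4 fell, with 19.1% and 26.2% over all genes tested. The SOX median of -0.33 there became 0.22 under quantile normalization. Under that scaling Sox5 and Sox9 fell short of 2-fold in this route. Sox3 rose there by 1.41 ± 0.18, listed at 0 in IEC, and Sox4 fell by 3.92 ± 0.12.

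Sox4, a SOX gene of progenitor cells, also differed among the pluripotent groups. It was at FPKM 10.9, 10.1 and 10.5 in NSC-CiPSC and 1.82 and 2.17 in IEC-CiPSC, against 7.53 in ESC. NSC-CiPSC exceeded IEC-CiPSC by 1.94 ± 0.09 on the log2 scale (limma, adjusted p = 0.00519), the reverse of Sox2, in a comparison in which 4.32% of all genes were called (1.56% higher, 2.76% lower). The lower level in IEC-CiPSC than in ESC (-1.51 ± 0.12, adjusted p = 0.0145) had adjusted p up to 0.0769 with 1 line left out. Pou6f1 was at 2.52, 1.74 and 2.02 in NSC-CiPSC, against 5.40 and 6.55 in IEC-CiPSC, a difference of -1.18 ± 0.16 (adjusted p = 0.0317, up to 0.190 with 1 line left out).

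**Figure D4:**
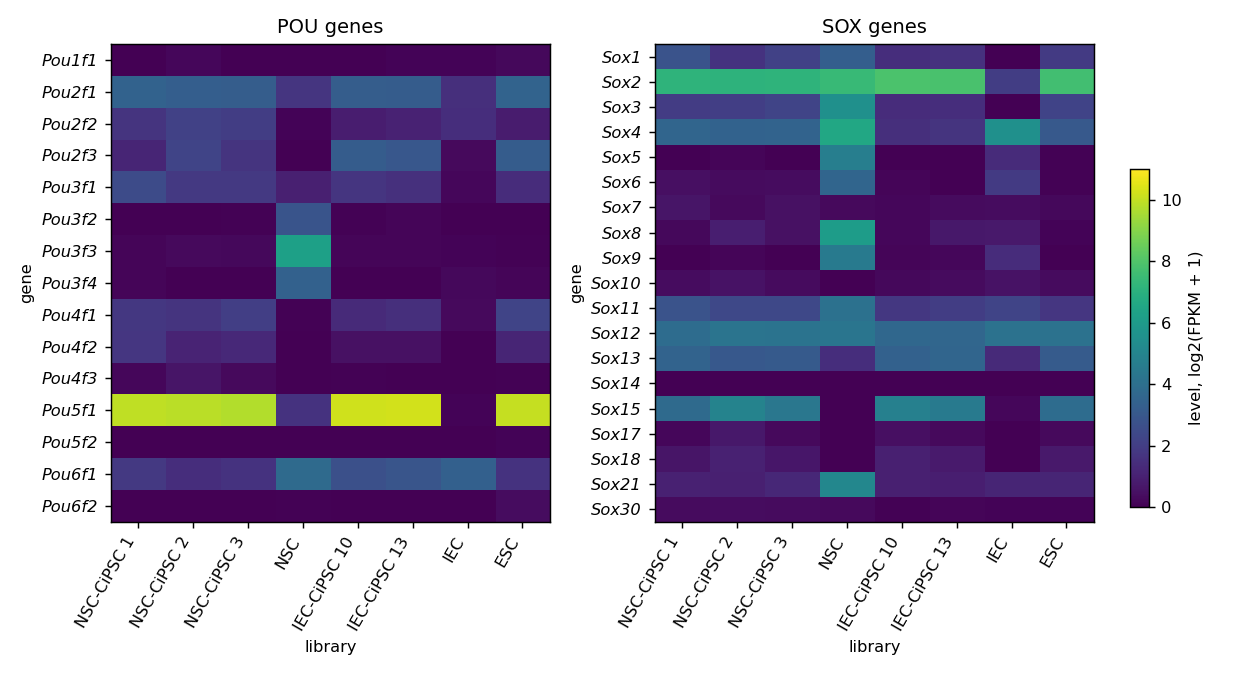
Levels of 15 POU and 19 SOX genes in the 8 libraries, with genes on the vertical axis, libraries on the horizontal axis and colour giving log2(FPKM + 1). Pou5f1 stands alone among POU genes in the 6 pluripotent libraries, and NSC shares a high Sox2 level with them but also has high Sox4, Sox8 and Sox3.

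Of 16 genes known in mouse embryonic stem cells to be activated by the 3 factors, 15 rose in NSC-CiPSC against NSC and none fell (median 5.64 against 0.03 over all genes). In IEC-CiPSC against IEC 15 rose and 1 fell (median 5.76 against -0.03). Of all genes tested, 18.3% rose and 20.7% fell in the neural route, and 19.1% and 26.2% in the intestinal route. In both routes 14 rose, against 10.5% of all genes tested that rose in both. The pluripotent markers used above to check the labels all belong to this list. Their rise was already seen in that check, so the target counts are not separate from it. Among those that rose were Dppa5a, which encodes an RNA-binding protein of pluripotent cells (9.31 ± 0.27 neural, 12.11 ± 0.29 intestinal), Tdgf1, a co-receptor of Nodal (8.43 ± 0.13 and 9.52 ± 0.14), Zfp42, a zinc finger marker (7.14 ± 0.32 and 7.83 ± 0.34), and Utf1, a chromatin factor (6.98 ± 0.39 and 6.34 ± 0.42). Fgf4, whose enhancer carries a SOX and octamer element bound by Sox2 and the Pou5f1 product, was at 78.8, 122 and 115 in NSC-CiPSC and 118 and 111 in IEC-CiPSC, against 0.0359 in NSC, 0 in IEC and 75.7 in ESC. Its log2 difference was 6.65 ± 0.28 in the neural and 6.85 ± 0.30 in the intestinal route. Fbxo15, an F-box gene long used as a reporter of pluripotency, rose by 6.76 ± 0.30 and 6.86 ± 0.32, and Tcl1, an Akt coactivator gene, by 4.47 ± 0.55 and 6.73 ± 0.59. Klf4, a reprogramming factor gene also expressed in epithelia, was at 88.0, 69.4 and 87.4 in NSC-CiPSC and 107 and 111 in IEC-CiPSC, against 1.51 in NSC, 31.8 in IEC and 75.4 in ESC. Its pluripotent levels lay above both source libraries, and it rose by 5.03 ± 0.16 in the neural and 1.75 ± 0.17 in the intestinal route. Spp1, a secreted phosphoprotein also made by macrophages, rose by 5.80 ± 0.10 in the neural route and fell by 1.99 ± 0.11 in the intestinal route. It was at 391, 339 and 351 in NSC-CiPSC, against 5.49 in NSC, and at 133 and 128 in IEC-CiPSC, against 519 in IEC, where the leukocyte markers were also high, and their part in it was not tested. The demethylase gene Kdm3a differed by 0.82 ± 0.10 in the neural route, short of 2-fold, and the call of Kdm4c there (1.06 ± 0.19) ended without NSC-CiPSC line 2, where the difference fell below 2-fold.

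Among the same 16 targets, 2 were called between NSC-CiPSC and ESC, where 2.81% of all genes were called (0.946% higher, 1.86% lower), and 1 between IEC-CiPSC and ESC, where 3.36% were (1.63% higher, 1.73% lower). Lefty1, an inhibitor of Nodal, was at 55.3, 37.9 and 59.8 in NSC-CiPSC and 30.3 and 34.0 in IEC-CiPSC, against 2.70 in ESC. Its differences of 3.79 ± 0.30 (adjusted p = 0.0132) and 3.16 ± 0.31 (adjusted p = 0.0230) had adjusted p up to 0.0780 and 0.143 with 1 line left out. Spp1 was higher in NSC-CiPSC than in ESC by 1.24 ± 0.10 (adjusted p = 0.0141, up to 0.0807). Zfp42 was at 238, 146 and 158 in NSC-CiPSC and 207 and 247 in IEC-CiPSC, against 764 in ESC, with differences of -2.11 ± 0.32 (adjusted p = 0.0555) and -1.75 ± 0.34 (adjusted p = 0.0779). Between the CiPSC origins Spp1 was higher in NSC-CiPSC by 1.46 ± 0.08 (adjusted p = 0.00630, up to 0.0784 with 1 line left out). The naive-state factor gene Tfcp2l1 was at 22.0, 36.5 and 35.3 in NSC-CiPSC, against 99.5 and 102 in IEC-CiPSC, a difference of -1.69 ± 0.26 (adjusted p = 0.0363, up to 0.211).

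Of 17 tested genes for protein partners of the 3 factors, 9 rose and none fell in NSC-CiPSC against NSC (median 1.17), and 12 rose and none fell in IEC-CiPSC against IEC (median 1.75). All 9 also rose in the intestinal route, against 10.5% of all genes tested that rose in both. Of all genes tested, 18.3% rose and 20.7% fell in the neural route (median 0.03). In the intestinal route 19.1% rose and 26.2% fell (median -0.03). The zinc finger gene Sall4 (6.00 ± 0.25 neural, 5.05 ± 0.27 intestinal), the orphan receptor genes Nr0b1 (5.34 ± 0.36 and 5.43 ± 0.38) and Esrrb (5.25 ± 0.08 and 7.27 ± 0.09) and the ARID factor gene Arid3b (3.62 ± 0.15 and 2.58 ± 0.16) moved most. They were followed by Rif1, a telomere and replication factor gene (2.91 ± 0.34 and 2.99 ± 0.36), Trim28, a corepressor gene (2.52 ± 0.29 and 2.03 ± 0.31), and Wdr5, a subunit gene of histone methyltransferase complexes (2.28 ± 0.18 and 2.80 ± 0.20). Sall4 and Esrrb are also in the target list. The deacetylase gene Hdac1 rose by 1.94 ± 0.07 and 1.92 ± 0.08, while Mta2 differed by 0.43 ± 0.08 and 0.52 ± 0.08 and Hdac2 by -0.20 ± 0.15 and 0.97 ± 0.16, short of the call. In the intestinal route the rises of Zfp143 and Ogt had adjusted p up to 0.142 and 0.0533 with 1 line left out. None of the 17 was called by limma against ESC in NSC-CiPSC or IEC-CiPSC, where 2.81% and 3.36% of all genes tested were called. An unadjusted p below 0.05 was found for 5 and 4 of them, against 3758 and 4096 of all 17011 genes tested. These counts do not set the partners apart from genes in general, and no other tool was run. Ogt, the O-GlcNAc transferase gene, was at 32.0, 24.4 and 32.7 in NSC-CiPSC, against 61.3 and 68.1 in IEC-CiPSC (-1.11 ± 0.16, adjusted p = 0.0329, up to 0.201).

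Of 12 genes for known upstream regulators of Pou5f1, Sox2 or Nanog, 8 rose and 2 fell in NSC-CiPSC against NSC (median 2.08), and 6 rose and 3 fell in IEC-CiPSC against IEC (median 0.88). Of all genes tested, 18.3% rose and 20.7% fell in the neural route (median 0.03). In the intestinal route 19.1% rose and 26.2% fell (median -0.03). The numbers of regulator genes that fell were near these shares. In both routes 5 rose and 2 fell, against 10.5% and 10.7% of all genes tested. The activators Nr5a2 (3.41 ± 0.12 neural, 1.99 ± 0.13 intestinal), Klf2 (4.42 ± 0.22 and 2.43 ± 0.23) and Klf5 (4.43 ± 0.32 and 2.85 ± 0.34) rose in both. The COUP-type receptor gene Nr2f1, whose product represses Pou5f1 through nuclear receptor elements, fell by 4.88 ± 0.13 and 4.47 ± 0.14. Its relative Nr2f2 was at 0.101 in NSC but 28.3 in IEC, and fell by 4.75 ± 0.05 in the intestinal route. Nr6a1, a repressor of Pou5f1 in differentiating cells, rose by 3.50 ± 0.31 and 2.31 ± 0.33. Trp53, which represses Nanog after damage, rose by 1.98 ± 0.34 in the neural route. Its rise of 1.25 ± 0.36 in the intestinal route had adjusted p up to 0.148 with 1 line left out, and that of Foxd3, an embryonic stem cell forkhead gene, had up to 0.133. The retinoic acid receptor gene Rarg was at 71.5, 43.3 and 40.8 in NSC-CiPSC and 7.98 and 12.1 in IEC-CiPSC, against 2.34 in NSC, 15.7 in IEC and 78.2 in ESC. NSC-CiPSC exceeded IEC-CiPSC in Rarg by 2.24 ± 0.33 (adjusted p = 0.0348, up to 0.199). Tcf7l1, a repressor of Nanog, was at 53.0, 44.3 and 52.2 in NSC-CiPSC and 29.1 and 28.6 in IEC-CiPSC, against 22.1 in ESC. NSC-CiPSC exceeded ESC in Tcf7l1 by 1.13 ± 0.13 (adjusted p = 0.0312, up to 0.129 with 1 line left out). Klf2 was at 46.1, 49.99 and 37.6 in NSC-CiPSC and 70.0 and 87.9 in IEC-CiPSC, against 127 in ESC. It was called lower in NSC-CiPSC than in ESC by -1.50 ± 0.22 (adjusted p = 0.0497), and the adjusted p was 0.0882 with no filter on low values and up to 0.130 with 1 line left out.

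Of 8 lineage genes that the 3 factors hold in check or share with differentiation, 6 were tested. In NSC-CiPSC against NSC, Pax6, a neural factor, fell by 3.67 ± 0.49, and Eomes, a trophoblast and mesoderm factor, rose by 1.15 ± 0.23, to 0.95 under quantile normalization, which is below 2-fold. In IEC-CiPSC against IEC, Gata6, an endoderm factor, fell by 3.41 ± 0.32, Hand1 fell by 2.33 ± 0.35 (adjusted p = 0.0616 with a pseudocount of 0.1), and Eomes rose by 2.11 ± 0.24. No lineage gene was called by limma between a CiPSC group and ESC or between the origins. Over all genes tested, 2.81% were called in NSC-CiPSC against ESC, 3.36% in IEC-CiPSC against ESC and 4.32% between the origins. Unadjusted p-values below 0.05 were found for 1 lineage gene in NSC-CiPSC against ESC, 0 in IEC-CiPSC against ESC and 1 between the origins. Of all 17011 genes tested, 3758, 4096 and 4894 had one, in the same order. These counts do not set the lineage genes apart from genes in general. Eomes was at 1.26, 1.71 and 2.20 in NSC-CiPSC and 3.57 and 3.05 in IEC-CiPSC, against 4.36 in ESC, and Cdx2 was at most 0.565 in any library.

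**Figure D5:**
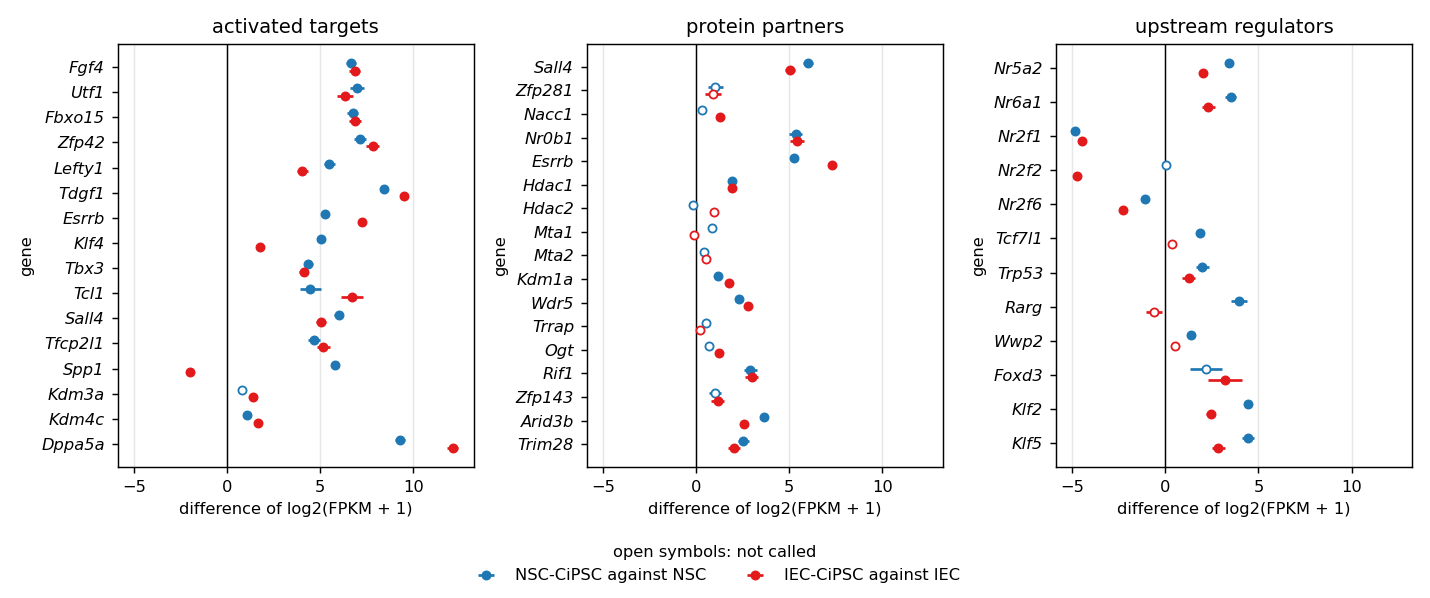
Differences of log2(FPKM + 1) for genes of 3 lists, on the horizontal axis, with genes on the vertical axis. Blue symbols are NSC-CiPSC against NSC and red symbols IEC-CiPSC against IEC, bars are standard errors, and open symbols were not called. Most targets lie far to the right in both routes, Spp1 lies on opposite sides, and Nr2f1 lies to the left in both.

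Genes starting within 100 kb of the 3 loci were listed. Upstream of Nanog lies Dppa3, a maternal and germ cell factor, 81.1 kb away, and downstream Slc2a3, a glucose transporter gene, 20.3 kb away. Dppa3 was at 17.9, 34.4 and 26.8 in NSC-CiPSC and 14.0 and 13.8 in IEC-CiPSC, against 0.211 in NSC, 0 in IEC and 2.05 in ESC. Dppa3 rose by 4.45 ± 0.38 and 3.90 ± 0.40 against the source cells. It was also higher in NSC-CiPSC than in ESC by 3.12 ± 0.38 (adjusted p = 0.0363, up to 0.144 with 1 line left out). Slc2a3 was at 283, 511 and 530 in NSC-CiPSC and 613 and 586 in IEC-CiPSC, against 14.0 in NSC, 6.77 in IEC and 313 in ESC, rising by 4.83 ± 0.41 and 6.27 ± 0.44. NSC-CiPSC line 1, the lowest line for Nanog, was also the lowest NSC-CiPSC line for Dppa3, Slc2a3 and Gm10420, a processed pseudogene 11.5 kb upstream. Line 3 was the lowest for Gm10224, 9.075 kb upstream, at 1.69, 2.45 and 1.23 in NSC-CiPSC. Line 1 was also the lowest NSC-CiPSC line for genes on other chromosomes, such as Dppa5a, Fgf4 and Tcl1. For others, such as Utf1 and Zfp42, it was the highest. A low value in line 1 is therefore not particular to genes near Nanog, and its share over all genes was not counted. Gm10420 was at 79.3, 106 and 97.1 in NSC-CiPSC and 17.2 and 17.0 in IEC-CiPSC, against 7.33 in NSC, 8.10 in IEC and 17.2 in ESC. Reads from its parent gene may be counted there.

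Next to Pou5f1 the pattern was mixed. Gm19553, an antisense entry inside the Pou5f1 locus, was at 40.8, 44.8 and 45.7 in NSC-CiPSC and 47.9 and 41.1 in IEC-CiPSC, against 0 in NSC, 0 in IEC and 42.8 in ESC. No source used here states that strand was kept, so its reads cannot be told apart from those of Pou5f1. Tcf19, a gene of the cell cycle 6.72 kb downstream on the other strand, was at 9.20, 10.1 and 11.5 in NSC-CiPSC and 6.37 and 6.40 in IEC-CiPSC, against 27.6 in NSC, 21.5 in IEC and 8.66 in ESC. Tcf19 fell by 1.35 ± 0.14 in the neural and 1.61 ± 0.15 in the intestinal route. H2-Q10, a class I histocompatibility gene 35.9 kb upstream, was at most 1.81 in the CiPSC lines, against 57.2 in IEC. Within the same distance of Sox2 the tables held 4 entries, parts of Sox2ot and Mir1897, none with a usable estimate in every library.

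Likeness of pattern was measured as the root mean square difference of log2(FPKM + 1) over the 8 libraries, after each gene was centred on its own mean, among tested genes with FPKM of at least 10 in a library. The genes most like Pou5f1 were Tdgf1 (0.300), Nanog (0.585), Mylpf, a myosin light chain gene (0.684), Dppa5a (0.728) and Tdh, the threonine dehydrogenase gene (0.901). Those most like Nanog were Tdgf1 (0.376), Pou5f1 (0.585), Mylpf (0.592), Trap1a, an X-linked gene (0.597), and 2410141K09Rik (0.603). Sox2 shared none of these. Genes near it were Amt, which encodes a glycine cleavage enzyme (0.549), Etv4, an ETS factor gene (0.650), 1700007K13Rik (0.678) and 2900011O08Rik (0.716). Amt rose by 4.57 ± 0.26 and Etv4 by 3.87 ± 0.34 in the intestinal route, and in the neural route they differed by 0.81 ± 0.25 (adjusted p = 0.0527) and -0.69 ± 0.32 (adjusted p = 0.141), neither called.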

How the data were processed

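Total RNA of 8 mouse libraries was sequenced, after isolation with an RNeasy kit and library construction with NEBNext Ultra reagents, per the labels. The deposited FPKM values were produced by the authors using TopHat, Cufflinks and the mm10 build, according to the submitters' processing notes. Their versions, the annotation release and the strand setting are not given in those notes or the labels. Each table held 39009 entries with FPKM, its 95% interval and a status. The 447 entries whose status was not OK in a library were left out of tests, among them the partner gene Chd4. Precision was read from the intervals. Implied fragments were the square of 2 times the FPKM divided by the upper arm of its interval, which treats the whole interval as counting.

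The 17011 genes that reached FPKM 1 in any library were tested on log2(FPKM + 1), which understates the change of low genes. A model with 5 group means over all libraries was fitted by limma 3.58.1 under R 4.3.3 (empirical Bayes with trend, 3 residual degrees of freedom and 1.10 prior). The fit was also run on simulated data in which every library had the spread of the NSC-CiPSC lines. That run cannot check whether NSC, IEC and ESC vary like the lines. Benjamini-Hochberg adjustment covered all genes tested. Alternatives were a pseudocount of 0.1, no filter, an FPKM minimum of 5, quantile and upper quartile scaling, no trend, leaving out each line, and keeping entries of any status, the last chosen after the files were seen. Ratios were tested by exact permutation. Motifs were searched in RefSeq windows of GRCm38.p6. Strands and biotypes came from GENCODE M21. Python 3.11.15, pandas 2.3.3, NumPy 2.4.6, SciPy 1.17.1 and matplotlib 3.10.9 were used.

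The 3 genes, the lists, the tests and the naming rule were chosen with earlier results of these data known. Genes named are the 3 members, up to 8 called genes of each list with the largest difference in either route, other list genes given as values, genes starting within 100 kb of a member, and for each member the 5 genes of most similar pattern. Some list genes named beside calls among pluripotent groups were picked after their values were seen. One gene of the upstream regulator list and of the genes most like Sox2 is not reported here, and the counts leave it out.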

Additional observations from a re-analysis of the deposited data

Results flagged for a closer look

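Of 73 genes tested in both routes from the lists around the 3 factors, 28 had a change in the neural route (NSC-CiPSC against NSC) that differed from their change in the intestinal route (IEC-CiPSC against IEC) in the direct test of that difference (limma, adjusted p under 0.05 and at least 2-fold), against 30.5% of all genes tested. Values are the neural minus the intestinal change on the log2 scale. NSC and IEC have 1 library each, so the gap between those libraries is part of every value and was not tested. Of the 3 factors, Sox2 (-6.14) and Pou5f1 (-1.84) were among them.

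The change was more positive in the neural route for 11 genes: Spp1 (7.79), Nr2f2 (4.78), Rarg (4.56), Gata6 (4.11), Klf4 (3.29), Pou2f2 (2.31), Klf2 (1.99), Tcf7l1 (1.49), Nr5a2 (1.42), Nr2f6 (1.19) and Arid3b (1.03). It was more positive in the intestinal route for 17, which besides Sox2 and Pou5f1 were Pou3f3 (-6.06), Sox8 (-5.19), Sox3 (-4.85), Sox21 (-3.82), Sox5 (-3.30), Sox9 (-3.14), Pou3f4 (-3.12), Pou3f2 (-2.96), Dppa5a (-2.80), Pax6 (-2.75), Esrrb (-2.01), Pou6f1 (-1.58), Sox6 (-1.42), Hdac2 (-1.17) and Tdgf1 (-1.10).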

How the results depend on the processing

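Each of 18 results for the 3 genes was recomputed under 12 alternatives, and 215 of 216 values kept their direction and their side of the call. The exception was Nanog in NSC-CiPSC against ESC, which ran from -0.407 to 0.0984 with 1 line left out, the highest without NSC-CiPSC line 1. Counts over all genes moved more with 1 line left out: 187 to 720 for NSC-CiPSC against ESC (478 with all lines), 153 to 890 for IEC-CiPSC against ESC (572) and 99 to 789 for NSC-CiPSC against IEC-CiPSC (735). The last count was 340 with no filter on low values. With all lines kept and no filter, calls that ended between the origins included Tfcp2l1 (limma, adjusted p = 0.0997), Rarg (0.0973), Ogt (0.0895), Nr2f6 (0.0835) and Pou6f1 (0.0708). In NSC-CiPSC against ESC, those of Klf2 (0.0882) and Dppa3 (0.0588) ended. Against the source cells, those of Pou2f3 (0.114) and Pou4f2 (0.0533) ended in the neural route. In the intestinal route those of Trp53 (0.110), Zfp143 (0.109), Foxd3 (0.0995) and Pou3f1 (0.0864) ended. Calls of some marker genes, such as Col1a1, also ended. More genes were tested without the filter, at the same differences. Scaling moved the median of all genes by over 0.1 on the log2 scale, to 0.148 in the intestinal route and -0.139 in the difference of routes under quantile normalization, and to 0.133 in the difference under upper quartile scaling. With a pseudocount of 0.1, 45.9% of calls in NSC-CiPSC against ESC were higher, against 33.7% with a pseudocount of 1. Pou5f1 differed between the routes by -3.91 to -1.76 over the alternatives. No paired analysis was possible because no label pairs a line with a library of another group. With 1 library each of NSC, IEC and ESC, no spread of theirs could be measured.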
